A study of Mus musculus with 18 samples.

Results

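The genes described here encode the proteins of the mitochondrial ribosome. They were taken as every mouse protein-coding gene in RefSeq whose symbol is Mrpl or Mrps followed by a number, reached through the accession that the array design gives for each probe. The rule found 78 genes, of 34289 named on the array, and all 78 had a probe. They were read by 83 of 37246 probes, since Mrps10 has 3 probes and Mrpl1, Mrpl48 and Mrps33 have 2 each. Mrpl genes were named for the large subunit and Mrps genes for the small subunit, although the proteins of Mrps30 and Mrps18a sit in the large subunit, and Mrps36 is known today as a part of the alpha-ketoglutarate dehydrogenase complex.

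The mitochondrial ribosome, or mitoribosome, translates the few messenger RNAs that mitochondrial DNA still encodes, all of them for subunits of the oxidative phosphorylation complexes. Its ribosomal RNAs are made in the organelle, whereas every one of its proteins is encoded in the nucleus, translated in the cytosol and imported. Some of these proteins have a bacterial counterpart, and others were gained by mitochondria and lie mostly on the surface of the particle. Pluripotent cells are known to rely strongly on glycolysis and to carry immature mitochondria, which makes the genes of mitochondrial translation a natural set to follow through differentiation.

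The study compared embryonic stem (ES) cells of the mouse with isogenic differentiated (ED) cells before and after ionizing radiation (IR), to look for differences in how stem and non-stem cells respond. ES cells were primary, early-passage cells grown with LIF on gelatin and without a feeder layer, and ED cells were the same cells grown in the absence of LIF for 1 week or until stem cell markers were lost. Unirradiated cells form the groups ES and ED. Cells given 10 Gy and collected at 15 min form ESRE and EDRE (radiation early), and those collected at 4 h form ESRL and EDRL (radiation late). Each group holds 3 samples, and each sample was hybridized to 1 single-color array, 18 in all. ED is undirected differentiation, so a group is a mixture of whatever cells grew out, and nothing states that replicates came from separate cultures, so p-values measure the spread between these samples, which may be technical.

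Signals are given as log2 values relative to the 75th percentile of their array, so 0 is the level of a fairly bright probe. A gene passed the test where the limma adjusted p was under 0.05 over all probes tested, and changes are differences on the log2 scale with their SE. Stem cell markers separated the groups: Pou5f1 read 6.80, 6.64 and 6.63 on the ES arrays and -3.50, -3.65 and -3.62 on the ED arrays, and 7 of 8 tested stem cell markers fell in ED (most of all Dppa5a, which changed by -13.14 ± 0.34, adjusted p = 5.13e-13). Of 7 fibroblast and mesenchyme markers 5 rose, the collagen gene Col1a2 most (5.91 ± 0.31, adjusted p = 1.46e-09), and Thy1 fell at least 400.3-fold, being not well above background in ED. Endoderm, mesoderm and trophoblast markers were lower in ED than in ES (3 of 3, 4 of 4 and 4 of 4 tested), as was 1 of 4 for neuroectoderm. The largest differences were in Foxa2 (at least 8.60-fold, not well above background in ED), T (-6.48 ± 0.90, well above background on 1 of 3 ED arrays), Krt7 (-6.70 ± 0.35) and Pax6 (-1.41 ± 0.40). The arrays EDRE 2, EDRE 3 and ESRL 1 were dimmer than the rest. Their 75th percentile was 875 (EDRE 2), 1155 (EDRE 3) and 1952 (ESRL 1), against 2806 to 4268 on the other arrays. On EDRE 2 and EDRE 3, 51 and 44 of the 78 mitoribosomal genes had a spot marked as an outlier by the scanner software, against 10 to 19 elsewhere, and such spots were left out.

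Across differentiation most mitoribosomal genes read lower in ED cells than in ES cells. Of 64 genes tested, 27 fell and 2 rose, and the median change was -0.50, with an interquartile range from -0.98 to -0.07. Over all genes tested, 31.6% fell and 19.2% rose, with a median of -0.18 and an interquartile range from -1.29 to 0.48. The mitoribosomal genes thus had a larger share of falls (42.2%) and a much smaller share of rises (3.12%) than the array as a whole, with changes of a narrower range. The array as a whole includes probes that RefSeq did not name, since it named 22212 of 37246. Among 11029 tested protein-coding genes with a promoter window, those without the letters CACGTG, 37.2% fell with a median of -0.31. Beside those genes the excess of falls was smaller. Of the 14 genes not tested, 12 had no unmarked spot in 1 of the 2 groups, and Mrpl21 and Mrpl41 were not well above background. With the marked spots kept, 76 genes were tested, 34 fell and 2 rose.

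The shift was present on each ED and EDRL array. Relative to the ES mean, the median over 76 mitoribosomal genes was -0.54, -0.58 and -0.56 on the 3 ED arrays, and -0.49, -0.51 and -0.55 on the 3 EDRL arrays. It lay between -0.07 and 0.04 on the ESRE arrays. Over 20900 genes the same median was between -0.07 and -0.02 on the ED arrays and between -0.21 and -0.15 on the EDRL arrays. EDRE 1 read -0.49 for the mitoribosomal genes, close to ED, whereas the dim arrays EDRE 2 and EDRE 3 read 0.12 and -0.05. Over the 20900 genes EDRE 1 read -0.26, below the ED arrays, and EDRE 2 and EDRE 3 read 0.09 and 0.06. The third dim array, ESRL 1, read 0.52, while ESRL 2 and ESRL 3 read -0.11 and 0.09. All 3 dim arrays thus read above the other arrays of their groups. ESRL 1 was alone in its scan, and EDRE 2 and EDRE 3 were the only arrays of theirs. Brightness and scan cannot be told apart for these arrays, and the part of either in these values was not tested.

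**Figure D1:**
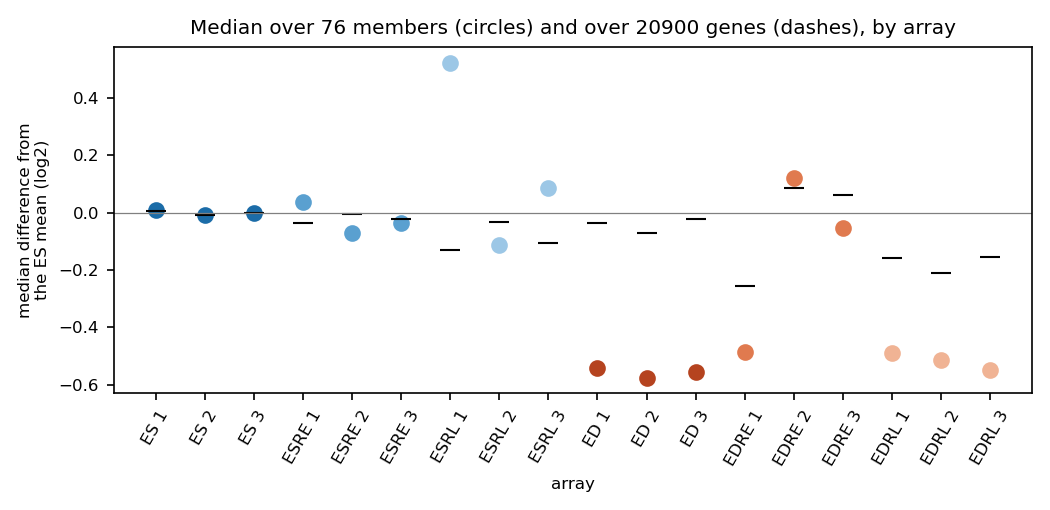
Median over 76 mitoribosomal genes (circles) and over 20900 genes well above background on more than 80% of arrays (dashes) of the difference from the ES mean (log2), for each of the 18 arrays on the x axis, outlier-marked spots kept. ED, EDRL and EDRE 1 lie near -0.5, while EDRE 2, EDRE 3 and ESRL 1, the 3 dim arrays, lie above the other arrays of their groups.

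The largest falls were in Mrpl24, Mrps12, Mrps24, Mrpl45 and Mrpl55. Mrps12, the counterpart of the bacterial protein of the decoding centre in which streptomycin resistance mutations occur, read 4.78, 4.51 and 4.72 on the ES arrays and 2.59, 2.67 and 3.09 on the ED arrays. No ED array reached the lowest ES array, and the change was -1.88 ± 0.18 (adjusted p = 1.24e-06). Separate groups were common, being seen in 60.2% of all genes measured on every ES and ED array. Mrps24, a small subunit protein with a bacterial counterpart, read 4.14, 4.17 and 3.99 in ES and 2.08 and 2.64 on the 2 ED arrays without an outlier mark, a change of -1.75 ± 0.20 (adjusted p = 3.78e-05). Mrpl45, which anchors the large subunit to the inner membrane beside the exit of the nascent chain, read -0.65, -0.79 and -0.77 in ES and -2.27, -2.55 and -2.58 in ED. The change was -1.73 ± 0.20 (adjusted p = 4.69e-06), with no overlap between the groups.

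Mrpl24, a large subunit protein with a bacterial counterpart, read 4.72, 4.57 and 4.67 in ES and 2.57 and 2.68 on the 2 unmarked ED arrays. Its change of -2.03 ± 0.20 (adjusted p = 0.000416) was the largest of the 64. Mrpl55, a large subunit protein with a bacterial counterpart, read 0.83 and 0.56 on the 2 unmarked ES arrays and -1.32, -0.77 and -0.68 in ED, a change of -1.62 ± 0.36 (adjusted p = 0.00225). In all, 15 of the 27 falls exceeded 1 on the log2 scale, where the lower quartile over all genes tested was -1.29.

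The 2 rises were in large subunit genes and were smaller than the leading falls. Mrpl13, with a bacterial counterpart, read 4.08, 3.90 and 4.13 in ES and 4.77, 4.85 and 5.05 in ED, a rise of 0.85 ± 0.19 (adjusted p = 0.00234). Mrpl57, a mitochondria-specific protein, read -3.39, -3.48 and -3.48 in ES and -2.41, -2.79 and -2.60 in ED, a rise of 0.85 ± 0.20 (adjusted p = 0.00249). Neither pair of groups overlapped, as in 60.2% of all genes measured on every ES and ED array.

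**Figure D2:**
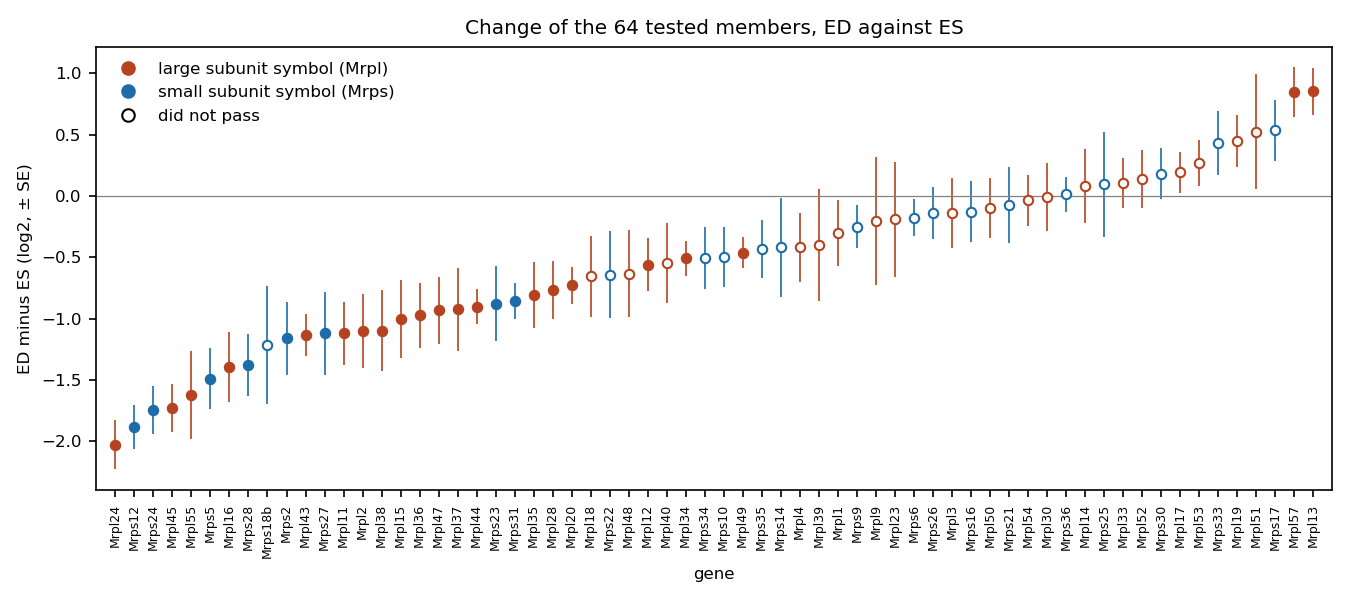
Change of each tested mitoribosomal gene between ED and ES (y axis, log2, bars ± SE), ordered along the x axis; red marks Mrpl and blue Mrps symbols, and open circles did not pass the test. The 27 falls reach -2.03, and the 2 rises stand at 0.85.

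**Figure D3:**
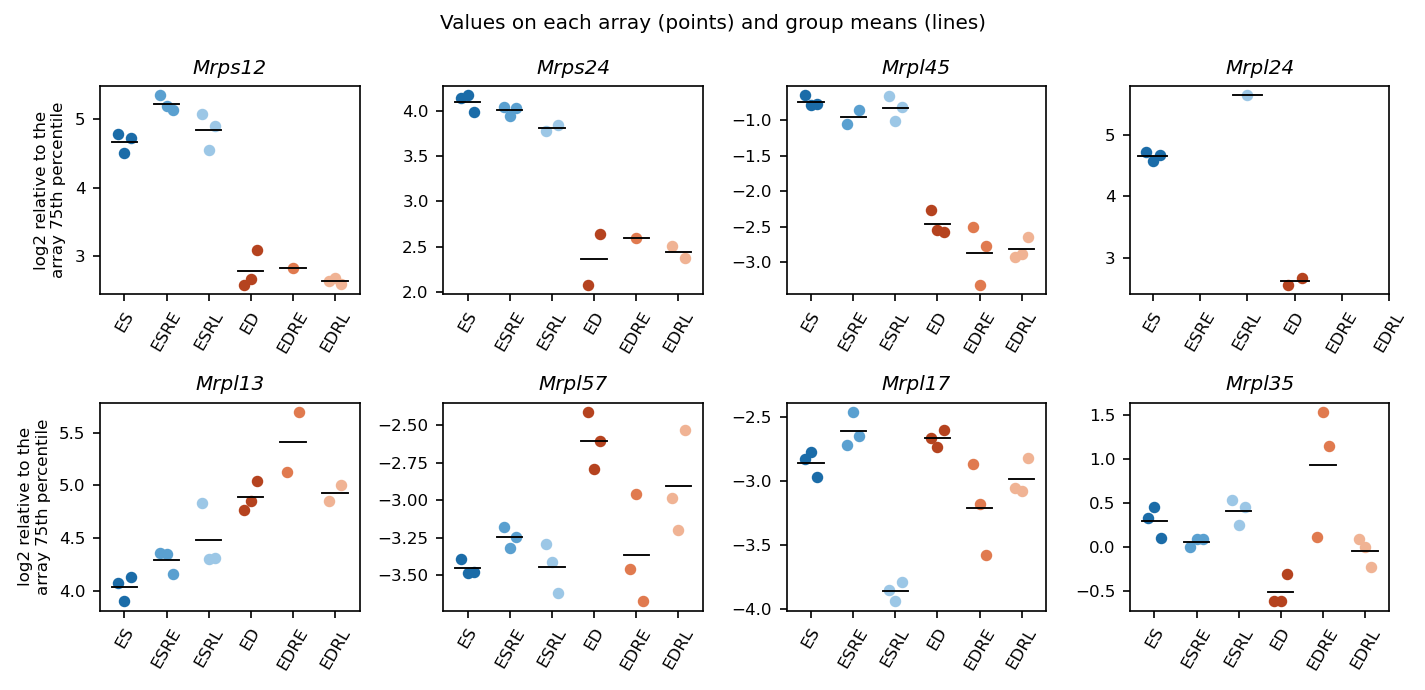
Values on each array (points, log2 relative to the array's 75th percentile) and group means (lines) of 8 mitoribosomal genes in the 6 groups on the x axis; spots marked as outliers are not drawn. Mrps12, Mrps24 and Mrpl45 are low on every ED, EDRE and EDRL array shown, Mrpl13 is high on them, Mrpl17 is lowest in ESRL, and Mrpl35 is highest on EDRE 2 and EDRE 3.

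The counts were split by subunit and by kind of protein, to be set beside the 31.6% falls and 19.2% rises over all genes. For genes of large subunit proteins 19 of 41 fell and 2 rose, with a median of -0.51, and for those of small subunit proteins 8 of 22 fell and 0 rose, with a median of -0.50 (with the marked spots kept, 23 of 49 and 11 of 26 fell). Of the genes with a bacterial counterpart 18 of 37 fell and 1 rose (median -0.51), and of the mitochondria-specific ones 9 of 26 fell and 1 rose (median -0.48). The falls of the small subunit and of the mitochondria-specific genes lay near the share over all genes, and their rises below it. The medians thus lay between -0.51 and -0.48 in these 4 classes, and no difference between the classes was tested. With each array set to its median they turned positive for both origins within each subunit, from 0.08 to 0.23.

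The genes of the stalk that recruits translation factors read lower in ED. Mrpl11, at the stalk base, read 3.89, 3.84 and 4.01 in ES and 2.52, 2.65 and 3.22 in ED (change -1.12 ± 0.26, adjusted p = 0.00248). Mrpl12, the stalk protein that has also been reported to bind the mitochondrial RNA polymerase, read 4.25, 4.21 and 4.35 in ES and 3.78, 3.51 and 3.85 in ED (change -0.56 ± 0.21, adjusted p = 0.0445). Each group pair was separate for these 2 genes, as in 60.2% of all genes measured on every ES and ED array. The fall of Mrpl12, however, passed in 6 of the 18 fits that left out 1 array and turned to 0.08 when every array was set to its median. Mrpl10, the other protein of the stalk base, carried an outlier mark on all 3 ES arrays and was not tested here; with the marked spots kept, its change was -0.76 (adjusted p = 0.00732).

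The 3 genes that share descent from bacterial S18 did not give a uniform picture. Mrps18b read 1.71 on the only unmarked ES array and 0.81, 0.72 and -0.03 in ED, and its change of -1.21 ± 0.48 did not pass (adjusted p = 0.0594). Mrps18a and Mrps18c lacked an unmarked spot in 1 of the groups, and with the marked spots kept their changes were -0.44 (adjusted p = 0.173) and -0.12 (adjusted p = 0.894). Mrps27, a small subunit protein of the pentatricopeptide repeat family, read 2.57, 2.77 and 2.38 in ES and 1.74, 1.12 and 1.50 in ED, a change of -1.12 ± 0.33 (adjusted p = 0.011). Mrps30, which despite its symbol belongs to the large subunit, changed by 0.18 ± 0.21 (adjusted p = 0.519). Mrpl58, a peptidyl-tRNA hydrolase that is part of the ribosome, had too few unmarked spots for a test (-0.43 with marked spots kept, adjusted p = 0.514). Mrpl41 was well above background on 8 of 18 arrays, 2 of them in ES and 1 in ED, and was not tested.

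Irradiated cells gave 2 further comparisons of ED with ES cells that share no array with the first. In these too the ED and ES cell arrays were read in different scans. At 4 h (EDRL against ESRL) 34 of 64 mitoribosomal genes were lower in ED cells and 4 were higher, with a median of -0.70, against 31.3% lower and 30.3% higher over all genes and a median of 0.08. At 15 min (EDRE against ESRE) 13 of 63 were lower and 5 higher, with a median of -0.13, against 32.6% lower and 23.4% higher over all genes and a median of -0.18. Without the 3 dim arrays EDRE 1 was alone in its group, and the median change at 15 min was -0.41, against -0.26 over all genes. EDRL against ESRL, with ESRL 2 and ESRL 3 left, gave 35 lower and 5 higher. Shares over all genes are not given here for fits with arrays left out. With EDRE 1 left out instead, 33 genes were tested at 15 min, 4 lower and 15 higher. The part of array brightness or of the scan in the smaller count of falls at 15 min was not tested.

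Of 57 genes tested in all 3 comparisons, 11 passed as lower in every one and 0 as higher, where 24.5% of all genes passed as lower and 16.0% as higher in all 3. The falls common to all 3 were thus no more frequent than over the array, while no rise was common to all 3. The 11 genes were Mrpl11, Mrpl12, Mrpl16, Mrpl20, Mrpl34, Mrpl44, Mrpl45, Mrpl55, Mrps12, Mrps24 and Mrps31. Mrps12 differed by -2.40 ± 0.25 at 15 min (5.34, 5.20 and 5.14 in ESRE and 2.83 on the only unmarked EDRE array) and by -2.20 ± 0.18 at 4 h (5.07, 4.55 and 4.90 in ESRL and 2.64, 2.68 and 2.60 in EDRL). Mrpl45 differed by -1.91 ± 0.22 and -1.99 ± 0.20. Both genes kept apart the ES and ED cells in all 3 comparisons. Among all genes measured on every array of both groups, 60.2% did so without IR, 39% at 15 min and 53.6% at 4 h.

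The changes were also correlated between the comparisons, with no correlation over all genes given here to set beside them. Across the 57 genes, which are not independent replicates, the changes in ED against ES and in EDRL against ESRL had a Pearson correlation of 0.78 and a Spearman correlation of 0.76, and those in ED against ES and in EDRE against ESRE 0.64 and 0.54. In 28 genes the change was below 0 in all 3 comparisons, in 5 it was above 0, and in 24 its sign differed. Mrpl13 was higher in ED cells at 15 min (1.12 ± 0.21, adjusted p = 0.000537) and read 0.44 ± 0.21 at 4 h (adjusted p = 0.0881). Mrpl57 was higher at 4 h (0.54 ± 0.20, adjusted p = 0.0302) and read -0.12 ± 0.20 at 15 min (adjusted p = 0.636).

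**Figure D4:**
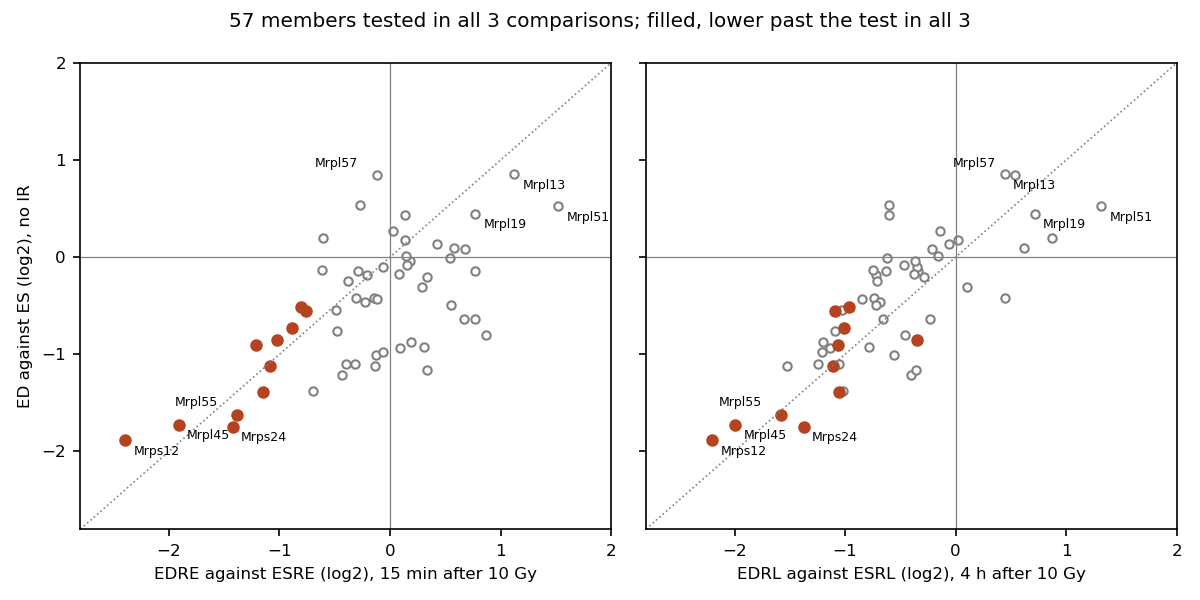
Change between ED and ES cells without IR (y axis, log2) against the change at 15 min (left) and at 4 h (right) after 10 Gy (x axes, log2) for 57 mitoribosomal genes; filled circles were lower past the test in all 3 comparisons and the dotted line marks equal change. The 11 filled genes lie in the lower left corner of both panels, with Mrps12 lowest.

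Further genes stood among the largest differences after IR. Mrpl51, a mitochondria-specific protein of the large subunit, was higher in ED cells by 1.52 ± 0.46 at 15 min (adjusted p = 0.0115) and by 1.32 ± 0.47 at 4 h (adjusted p = 0.0232), but its 15 min value came from EDRE 2 (-0.85) and EDRE 3 (-0.68), while EDRE 1 (-3.20) lay below all ESRE arrays (-3.17, -3.07 and -3.06). Without the dim arrays, which leaves EDRE 1 alone in its group, its 15 min change was -0.10. Mrpl3, Mrpl19 and Mrpl35 were likewise higher at 15 min, by 0.77 ± 0.28, 0.77 ± 0.21 and 0.87 ± 0.27. With EDRE 1 alone in its group, their changes were -0.18, 0.30 and 0.05. Mrpl44, an RNase III-like protein, and Mrpl55 were lower at 15 min (-1.21 ± 0.19 and -1.38 ± 0.44), as was Mrps24 (-1.42 ± 0.24). At 4 h the largest difference was in Mrps5 (-2.53 ± 0.34, adjusted p = 0.00271), which rests on 1 unmarked array in each group, 1.27 in ESRL and -1.26 in EDRL, and was -1.69 with the marked spots kept. Mrps12 and Mrpl45, given above, came next, then Mrpl55 (-1.58 ± 0.32) and Mrps27 (-1.52 ± 0.33), and Mrpl17 (0.88 ± 0.17), Mrpl19 (0.72 ± 0.21) and Mrpl57 were higher.

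How far these counts go depends on how the arrays are scaled and on the scan they belong to. With each array set to its median instead of its 75th percentile, all genes read 0.46 higher in ED than in ES at the median, the mitoribosomal genes read 0.16, and the split became 6 lower and 11 higher. Relative to all genes the mitoribosomal median was then -0.30, close to the -0.31 of the 75th percentile scale, and 41 of 64 genes lay below the median of all genes, against 42. At 4 h the same scaling gave 12 lower and 9 higher (median -0.21, against 0.56 over all genes). At 15 min it gave 2 lower and 27 higher (median 0.62, against 0.59 over all genes). Quantile normalization left the leaning to falls without IR (22 lower and 1 higher) and at 4 h (27 and 2), but at 15 min gave 10 lower and 16 higher. Its medians were -0.71, -0.62 and 0.08, against -0.02, 0.30 and 0.79 over all genes. The shares of all genes lower or higher under these scalings are not given here. The genes lower in ED than in ES under the 75th percentile, the median, quantile normalization and normexp background correction were Mrpl24, Mrpl45, Mrps5, Mrps12 and Mrps24, and only Mrpl13 was higher under these 4.

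The scan times in the files, 6 in all, place the 3 ES arrays in 1 scan and the 3 ED arrays in another. Scan and cell type thus cannot be told apart for these 2 groups. In every other comparison, between cell types or after IR, the groups compared also shared no scan. Scan therefore cannot be told apart from cell type or IR in any of them. With scan time as a random block, Mrpl24, Mrpl45, Mrps12 and Mrps24 passed as lower in ED and no gene as higher. The counts at 4 h fell to 6 lower and 2 higher, with no shares over all genes given here to set beside them. One ES-cell array, ESRE 3, was read in the same scan as the 3 ED arrays. Against it the mean of the ED arrays was lower for 64 of 76 mitoribosomal genes, with a median of -0.46, while over 20900 genes it was lower for 50.8% with a median of -0.02. Within that scan Mrps12 differed by -2.35, Mrps24 by -1.67, Mrpl45 by -1.47, Mrpl24 by -2.04, Mrpl13 by 0.73 and Mrpl57 by 0.64. With a single irradiated ES sample there, these differences have no test.

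Between irradiated and unirradiated ES cells few mitoribosomal genes passed the test, and at 15 min few genes did over the array. At 15 min 0 of 60 passed the test by limma, 4 had an unadjusted p under 0.05, and the median change was -0.00, where 0.547% of all genes passed. By the methods' t-test 1 passed. The largest rise was in Mrps33, a small subunit protein, which read -5.01, -4.80 and -4.67 in ES and -4.34, -4.01 and -3.66 in ESRE (0.82 ± 0.26, adjusted p = 0.235), and the largest fall was in Mrps18b (-0.68 ± 0.48, adjusted p = 0.798). At 4 h Mrpl34 rose and Mrpl17 fell, of 64 tested, where 1.67% of all genes rose and 7.50% fell.

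Mrpl17, a large subunit protein near the exit tunnel with a bacterial counterpart, gave the clearest difference after IR in the set. The ES and ESRL arrays were read in different scans. It read -2.82, -2.77 and -2.97 in ES, -2.71, -2.46 and -2.65 in ESRE, and -3.85, -3.94 and -3.79 in ESRL. The 3 ESRL arrays lay below every other array in the study, and from ES to 4 h it fell by 1.00 ± 0.17 (adjusted p = 0.00319). In ED cells Mrpl17 read -2.66, -2.73 and -2.60 without IR and -3.05, -3.08 and -2.82 at 4 h, a difference of -0.32 ± 0.17 that did not pass (adjusted p = 0.423). The responses of the 2 cell types differed by -0.68 ± 0.24 (adjusted p = 0.195). The fall in ES cells missed the threshold with each array set to its median (-0.69, adjusted p = 0.062), with quantile normalization (adjusted p = 0.271), with normexp (adjusted p = 0.0963), in the methods' t-test (adjusted p = 0.0579) and with scan time as a block (adjusted p = 1.00).

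Mrpl34, also with a bacterial counterpart, read 4.35, 4.25 and 4.14 in ES and 4.84, 4.78 and 4.66 in ESRL, a rise of 0.51 ± 0.14 (adjusted p = 0.0458). The groups did not overlap, as in 29.2% of all genes measured on every ES and ESRL array. The call, however, held in only 4 of the 18 fits that left out 1 array (adjusted p = 0.103 without ESRL 1). It was lost with quantile normalization (0.28, adjusted p = 0.593), normexp (0.33, adjusted p = 0.507), scan time as a block (adjusted p = 1.00), replicate number as a block (adjusted p = 0.0642), only the groups compared (adjusted p = 0.155), the methods' t-test (adjusted p = 0.112) and the marked spots of all genes kept (adjusted p = 0.105). The median change of the set at 4 h was 0.18, against -0.18 over all genes, and the dim ESRL 1 was the highest of the 3 arrays at 0.52. Without the 3 dim arrays 4 genes were lower and 2 higher in ESRL than in ES, with no share over all genes given here.

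In irradiated ED cells, the dim arrays EDRE 2 and EDRE 3 were read in a scan of their own. At 15 min 6 of 65 genes were higher in EDRE than in ED and 1 was lower, where 3.58% of all genes were higher and 3.69% lower. Mrpl35, a large subunit protein with a bacterial counterpart, read -0.60, -0.61 and -0.30 in ED and 0.11, 1.54 and 1.15 in EDRE (1.44 ± 0.26, adjusted p = 0.0106). Mrps2 (1.11 ± 0.30), Mrpl2 (1.06 ± 0.30), Mrpl36 (1.04 ± 0.26), Mrpl47 (1.03 ± 0.27) and Mrpl3 (1.00 ± 0.28) passed as well. In each of these 6 genes EDRE 2 and EDRE 3 stood above EDRE 1, whose difference from the ED mean was 0.62 for Mrpl35, 0.12 for Mrps2, 0.27 for Mrpl2, 0.46 for Mrpl36, 0.23 for Mrpl47 and 0.05 for Mrpl3.

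The counts differed with the arrays that entered a gene's mean. Of 31 genes whose EDRE mean came from EDRE 1 alone, 0 passed and the median change was 0.09. Of 12 genes with 1 of EDRE 2 and EDRE 3, 0 passed and the median was 0.53, and of 22 genes with both, 6 were higher and 1 lower with a median of 0.84. Without the 3 dim arrays EDRE 1 was alone in its group, and the median change was 0.07, against -0.06 over all genes. When EDRE 1 was left out 27 genes passed. Mrpl57 was lower, reading -2.41, -2.79 and -2.60 in ED and -3.46, -2.96 and -3.67 in EDRE (-0.76 ± 0.20, adjusted p = 0.0369), with EDRE 1 among the low arrays; its value was 1.12 under quantile normalization (adjusted p = 0.0867). Of the 18 fits that left out 1 array, Mrpl35 passed in 18, Mrpl36 in 14, Mrpl57 in 7, Mrps2 and Mrpl47 in 4 and Mrpl2 in 3. The part of array brightness, scan or IR in these counts cannot be told apart and was not tested.

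At 4 h, on arrays of ordinary brightness, few genes differed between EDRL and ED, in this set and over the array. By limma 0 of 67 genes passed, 3 had an unadjusted p under 0.05, and the median change was -0.06 with an interquartile range from -0.18 to 0.08, where 2.33% of all genes passed. By the methods' t-test 3 passed. The largest rise was in Mrps31 (-1.25, -1.03 and -0.98 in ED and -0.40, -0.62 and -0.74 in EDRL, change 0.50 ± 0.14, adjusted p = 0.0898), and the largest fall, in Mrps5 (-1.32 ± 0.29, adjusted p = 0.145), came from 1 EDRL array.

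The difference between the responses of ES and ED cells was tested for each gene. At 15 min 1 of 57 genes passed, where 1.99% of all genes did. This was Mrpl35, whose change in ES cells (-0.23 ± 0.27) minus that in ED cells was -1.67 ± 0.38 (adjusted p = 0.0404). Without the dim arrays, which leaves EDRE 1 alone in its group, the difference was -0.85. When EDRE 1 was left out, which leaves the dim EDRE 2 and EDRE 3, 17 genes passed. At 4 h 0 of 61 passed by limma and 6 had an unadjusted p under 0.05, where 1.14% of all genes passed. The largest difference was in Mrps17 (1.14 ± 0.35, adjusted p = 0.199) and the lowest in Mrps14 (-0.87 ± 0.57, adjusted p = 0.50).

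Other genes that build and serve the mitoribosome were read from lists drawn up for this purpose. Of the 5 mitoribosomal proteins with other symbols, Ptcd3 (-0.82 ± 0.18, adjusted p = 0.00389) and Aurkaip1 (-0.51 ± 0.16, adjusted p = 0.0175) fell in ED, although Aurkaip1 read 0.14 with each array set to its median. Dap3 (-0.53 ± 0.22, adjusted p = 0.0562), Chchd1 (0.22 ± 0.18) and Gadd45gip1 (0.77 ± 0.41) did not pass. Of 22 tested genes for assembly of the ribosome and modification of its RNA, 13 fell and 0 rose, with a median of -0.71. Mrm2, a methyltransferase of the large ribosomal RNA, fell by 1.35 ± 0.34 (adjusted p = 0.00461), and Tfb1m, which methylates the small ribosomal RNA, changed by -1.30 ± 0.23. Over all genes 31.6% fell and 19.2% rose. With each array set to its median, 1 gene of this list was lower and 2 were higher, with a median of -0.07, which was -0.53 relative to all genes, as on the 75th percentile scale.

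The enzymes that charge mitochondrial transfer RNAs were also mostly lower, with 9 falls and 1 rise among 16 and a median of -0.76 (4 lower and 3 higher with each array set to its median). Aars2 fell most (-1.63 ± 0.18, adjusted p = 1.47e-05), and Gatc, a subunit of the glutamyl-tRNA amidotransferase, rose (0.94 ± 0.16, adjusted p = 0.000268). Of 12 genes of mitochondrial DNA transcription and replication, 7 fell and 2 rose, beside these 31.6% and 19.2% (1 and 3 with each array set to its median). Tefm, the elongation factor of mitochondrial transcription, fell by 1.53 ± 0.17 and Tfam, which packages mitochondrial DNA, fell by 0.98 ± 0.21, while Tfb2m, a factor for transcription initiation, rose by 0.68 ± 0.15. Polrmt, the mitochondrial RNA polymerase, read -0.48 ± 0.26 (adjusted p = 0.142) and was lower at 4 h (-1.18 ± 0.26, adjusted p = 0.00139).

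The translation factors had 3 falls and 3 rises among 14, not far from the 31.6% and 19.2% of all genes (1 and 4 with each array set to its median). Gfm2, which acts in ribosome recycling, fell by 1.75 ± 0.13 (adjusted p = 2.69e-07), and Gfm1, the elongation factor for translocation, and Lrpprc, which stabilizes mitochondrial messenger RNAs, fell too (-1.35 ± 0.31 and -0.81 ± 0.23). Guf1, a back-translocating factor, rose by 1.60 ± 0.28 (adjusted p = 0.000306). Tufm, which delivers transfer RNAs to the ribosome, read -0.23 ± 0.25 (adjusted p = 0.507).

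Among regulators of nuclear genes for mitochondria, 2 rose and 3 fell of 10 tested, close to the 19.2% and 31.6% of all genes (3 and 2 with each array set to its median). Nrf1, a factor that binds many promoters of such genes, rose by 1.04 ± 0.14 (adjusted p = 4.26e-05), and the coactivator Ppargc1a rose by 4.81 ± 0.65 (adjusted p = 1.68e-05), being well above background on 3 ED and 2 ES arrays. The related coactivator Pprc1 fell by 1.17 ± 0.23 (adjusted p = 0.00358), and Mycn fell by 11.50 ± 0.75, with 1 of 3 ED arrays well above background. Gabpa (0.44 ± 0.29, adjusted p = 0.235) and Esrra (-0.07 ± 0.18, adjusted p = 0.793) did not pass, and Myc and Ppargc1b lacked unmarked spots. After IR these lists held few calls: at 15 min in ES cells 0 genes of any list passed by limma, where 0.547% of all genes did.

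**Figure D5:**
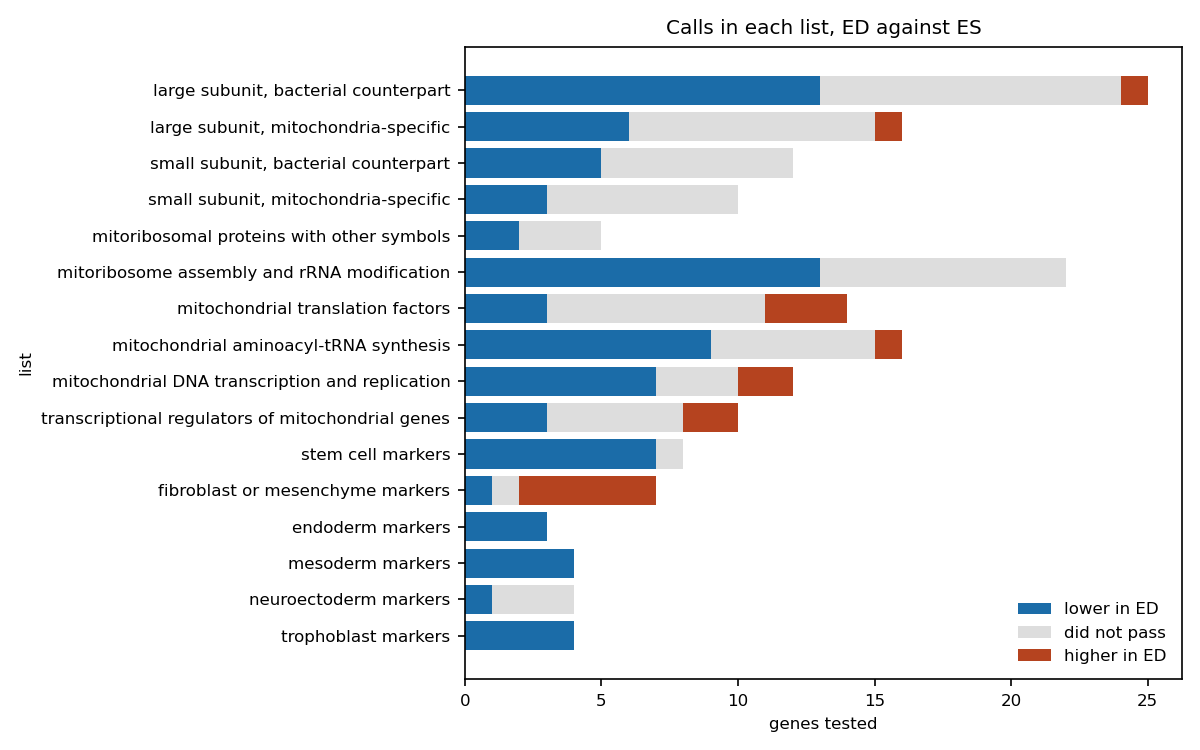
Number of tested genes (x axis) in each list (y axis) that were lower in ED than in ES past the test (blue), higher (red) or did not pass (grey); the top 4 bars are the mitoribosomal genes of this report by subunit and origin. Falls outnumber rises in the ribosomal protein, assembly, transfer RNA and mitochondrial DNA lists, while the translation factors have 3 of each. Over all genes 31.6% fell and 19.2% rose. With each array set to its median, rises outnumber falls in the translation factor, assembly and mitochondrial DNA lists and in 3 of the 4 ribosomal protein bars.

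Promoter letters were read from RefSeq windows of 300 bases, 250 before to 50 after the transcription start (GRCm38.p6), which held 69 of the 78 genes and 17491 protein-coding genes in all. On either strand CCGGAAG, the core letters bound by ETS factors such as GABP, stood in 26 of the 69 genes (37.7%) and in 12.9% of all genes. AAGATGGC, the core bound by YY1, stood in 12 (17.4%) against 3.57%, and GCATGCGC, part of the NRF1 site, in 8 (11.6%) against 3.93%. The E-box CACGTG stood in 5 (7.25%) against 8.91%. A start of another gene on the opposite strand lay within 1000 bases upstream of 24 of the 69 genes (34.8%) and of 8.48% of all genes; Mrps11 and Mrpl46 share such a region with each other, with 42 bases between their starts, and Mrps12 faces Sars2, the mitochondrial seryl-tRNA synthetase, across 147 bases. Sars2 in ED fell by 1.60 ± 0.35 (adjusted p = 0.00279).

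The sites of the 12 genes with AAGATGGC are shown because Mrps12 and Mrps24, among the largest falls, are of this group. All 7 of them that were tested fell (median -0.97), as did 17 of the 48 tested genes without the letters (median -0.41). With each array set to its median, Mrps12 and Mrps24 were the ones of the 7 that passed as lower, and Mrpl49 read 0.18. Over the tested protein-coding genes with a window, 34.4% of 491 with the letters fell and 37.3% of 11781 without. The split seen within the mitoribosomal genes was thus not seen across these genes. For CCGGAAG, 5 of 20 tested genes with the letters fell and 19 of 35 without. For CACGTG all 4 tested genes fell (median -0.95) and 20 of 51 without, and for GCATGCGC 0 of 5 fell (median -0.20) and 24 of 50 without. The split was thus not particular to 1 motif. Over the tested protein-coding genes with a window, the shares that fell with and without the letters lay closer together. They were 34.6% and 37.6% for CCGGAAG, 37.3% and 37.2% for CACGTG, and 32.7% and 37.4% for GCATGCGC. These counts are descriptions over a few genes, and a match is not evidence of binding. In the sites, read along the motif with up to 10 bases on either side, capitals mark AAGATGGC, and the base given counts from 1 at the transcription start to the first base of the letters in the direction of the gene. In 8 genes the letters lie on the gene's own strand after the start, and in the other 4, Mrpl32, Mrpl36, Mrps11 and Mrps12, they lie on the opposite strand before it. For Mrps12, Mrps11 and Mrpl32 they lie past the start of the neighbour on that strand, Sars2, Mrpl46 and Psma2. Those starts stand 147, 42 and 205 bases before the start of the gene.
Mrps12 (chr7:28742003-28742030, + strand, opposite to the gene, from 199 bases before the start): tttccactccAAGATGGCtgcgtccatg
Mrps24 (chr11:5707652-5707675, - strand, from base 37): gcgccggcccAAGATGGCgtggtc
Mrps27 (chr13:99344790-99344817, + strand, from base 15): ggtgcgctccAAGATGGCggctcccatg
Mrpl36 (chr13:73330969-73330996, - strand, opposite to the gene, from 30 bases before the start): gccaggaagaAAGATGGCgtaaggtcac
Mrpl37 (chr4:107066823-107066850, - strand, from base 27): tgcacgggcaAAGATGGCggcgtccagg
Mrpl35 (chr6:71823744-71823771, - strand, from base 24): ggcaggctgcAAGATGGCggcttccatc
Mrpl49 (chr19:6057722-6057749, - strand, from base 17): ttgaggcgccAAGATGGCagcagcggtg
Mrps18a (chr17:46111005-46111032, + strand, from base 12): ggtgcgttccAAGATGGCggccctcagg
Mrps7 (chr11:115604148-115604175, + strand, from base 19): gacagcggccAAGATGGCtgcccccgcg
Mrpl42 (chr10:95501905-95501932, - strand, from base 28): agattgaagcAAGATGGCgagcgcgcgg
Mrps11 (chr7:78783014-78783041, - strand, opposite to the gene, from 107 bases before the start): ggaagacagaAAGATGGCggcgcccgta
Mrpl32 (chr13:14613262-14613287, + strand, opposite to the gene, from 242 bases before the start): tttccgggtaAAGATGGCagagcgcg

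The first 7 of these sites belong to the genes that fell in ED, in order Mrps12 (-1.88), Mrps24 (-1.75), Mrps27 (-1.12), Mrpl36 (-0.97), Mrpl37 (-0.92), Mrpl35 (-0.80) and Mrpl49 (-0.46), and the last 5 to genes without a test in that comparison. The whole upstream part of the Mrps12 window is shown as the region between the starts of Mrps12 and Sars2 and beyond, since Mrps12 had the largest difference between ED and ES cells among genes tested in all 3 comparisons. It lies at chr7:28741822-28742071 on the - strand, and the capitals mark the same letters on the other strand.
Mrps12 upstream: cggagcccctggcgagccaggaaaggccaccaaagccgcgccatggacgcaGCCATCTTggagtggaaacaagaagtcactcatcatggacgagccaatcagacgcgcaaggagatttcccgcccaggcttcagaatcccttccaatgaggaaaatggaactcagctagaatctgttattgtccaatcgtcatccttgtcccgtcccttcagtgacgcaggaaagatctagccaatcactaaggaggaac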

How the data were processed

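Total RNA of 18 samples was labeled with Cy3 and hybridized to single-color Agilent arrays. The intensity values that the authors deposited are background-subtracted processed signals of Agilent Feature Extraction, not normalized between arrays, with median and local background signals, outlier marks and a mark for signal well above background as the software wrote them. A second deposited table gives log2 values, in each column the log2 signal less a constant close to the array's median.

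Of 39448 spots per array, 1417 control spots and 200 unmarked negative controls were left out, and RefSeq named 22212 probes through their accessions. The log2 of the processed signal was taken relative to the 75th percentile of its array. Spots carrying either outlier mark (non-uniform, population) were dropped. No mitoribosomal spot was saturated. A probe was tested where it was well above background (at least 50% of its spots) on all 3 arrays of at least 1 group compared. A gene was read through its probe with the highest mean over all arrays. All 18 arrays entered 1 model of 6 group means in limma 3.58.1 (R 4.3.3), with moderated variances and Benjamini-Hochberg adjustment over all probes tested, and an adjusted p under 0.05 passed. The responses of ES and ED cells to IR were compared as the ES difference minus the ED difference. The fit was tested on simulated data that were independent between arrays, without missing spots and without a scan effect. The simulation could therefore not check p-values where arrays of a group share a scan or spots are left out. The number of arrays limits the precision.

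Alternatives were each array set to its median, quantile normalization, normexp background correction (offset 50; on the median signal, since no mean signal was used here), a filter on all 18 arrays, outlier spots kept, scan time or replicate number as a block, only the groups compared, the methods' t-test, any probe of a gene, the deposited matrix, leaving out the 3 dim arrays, and leaving out each array in turn. Scan time stands for the slide, which is an inference from the file headers. Genes named in the text are, in every comparison, up to 5 rises and 5 falls past the test, taken by size (where none passed, the top one each way), a fixed set of members and regulators, and the largest rise and fall of each list, and any gene beyond these was chosen after its values were seen. The genes, lists and tests were chosen with earlier results of these data known.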

Additional observations from a re-analysis of the deposited data

Results flagged for a closer look

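Mrpl35 was the mitoribosomal gene that responded to IR at 15 min differently in the ES and ED cells when the difference itself was tested (-1.67 on the log2 scale, the change in ES minus that in ED cells, limma adjusted p = 0.0404). In ES cells the 3 arrays after IR (0.01, 0.10 and 0.09) lay below those before it (0.34, 0.45 and 0.11), and in ED cells those after IR (0.11, 1.54 and 1.15) lay above those before it (-0.60, -0.61 and -0.30). Among all genes measured on every array, 29.9% in ES cells and 24.5% in ED cells had groups as separate, in either direction. The 2 highest values came from the dim arrays EDRE 2 and EDRE 3. The call held in 3 of the 18 fits that left out 1 array. Without the 3 dim arrays, which leaves EDRE 1 alone in its group, the difference was -0.85. It missed the threshold with quantile normalization (-3.18, adjusted p = 0.0653), normexp (-1.84, adjusted p = 0.0819) and scan time as a block (-1.43, adjusted p = 1.00). The same held with replicate number as a block (adjusted p = 0.0611) and only the groups compared (adjusted p = 0.0758). The part of array brightness or scan, which cannot be told apart for these arrays, was not tested.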

How the results depend on the processing

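The mitoribosomal genes past the test are given as higher plus lower. Shares over all genes under these settings are not given here, so the counts describe the set alone. With each array set to its median, ED against ES gave 17 (11 and 6), EDRE against ED 11, EDRE against ESRE 29 (27 and 2), EDRL against ESRL 21 (9 and 12) and the difference between responses at 15 min 2. The deposited log2 matrix, also centred near the median, gave 18 (11 and 7), 21, 39 (33 and 6), 23 (9 and 14) and 2 for the same comparisons, and 1 for ESRL against ES. With scan time as a random block (consensus correlation 0.81) they were 4, 0, 5, 8 and 0, and 0 for ESRL against ES. Quantile normalization gave 0 for ESRL against ES, 23 for EDRE against ED (23 and 0), 26 for EDRE against ESRE (16 and 10, where 5 and 13 were reported) and 0 for the responses at 15 min, and normexp gave 0 for the first and last of these. Without the 3 dim arrays the counts were 2 (ESRE against ES), 6 (ESRL against ES), 0 (EDRE against ED), 5 (EDRL against ED), 28 (EDRE against ESRE), and 0 and 2 for the responses at 15 min and 4 h. Probes well above background on all 18 arrays gave 4 for ESRL against ES and 12 for EDRE against ED, and keeping outlier spots gave 16 for EDRE against ED and 35 for EDRE against ESRE. With only the groups compared, ESRL against ES gave 1, EDRE against ED 0, EDRL against ED 4, EDRE against ESRE 9, and the responses 0 at 15 min and 1 at 4 h. The methods' t-test gave 1 (ESRE against ES), 0 (ESRL against ES), 0 (EDRE against ED), 3 (EDRL against ED) and 3 (EDRE against ESRE). The causes were not tested. Apart from the comparisons with EDRE without the dim arrays, the other totals stayed within 1.5 times the reported one.

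Replicate numbers did not pair the samples: correlations of the deviations of same-numbered samples ran from -0.43 to 0.30, and in no comparison were all 3 above 0.1. With replicate number as a block the counts were 27 for ED against ES, 1 for ESRL against ES, 2 for EDRE against ED, 18 for EDRE against ESRE, 35 for EDRL against ESRL and 0 for the responses at 15 min.

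Leaving out 1 array at a time, the counts ran from 24 to 33 (ED against ES), 0 to 0 (ESRE against ES), 1 to 7 (ESRL against ES), 1 to 27 (EDRE against ED, highest without EDRE 1), 0 to 0 (EDRL against ED), 15 to 25 (EDRE against ESRE), 30 to 48 (EDRL against ESRL), 0 to 17 (responses at 15 min, highest without EDRE 1) and 0 to 1 (responses at 4 h).

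Directions turned in these named genes: with each array set to its median and with the deposited matrix, Mrpl12 (ED against ES, 0.084 and 0.089; EDRE against ESRE, 0.138 and 0.087) and Aurkaip1 (ED against ES, 0.14 and 0.14); with the median alone, Mrpl10 (EDRE against ESRE, 0.20); with the matrix alone, Mrpl44 (0.16) and Mrpl11 (0.12) in EDRE against ESRE; with quantile normalization, Mrpl57 (1.12) and Mrps30 (2.03) in EDRE against ED and Mrpl45 (0.18) in EDRE against ESRE; without the dim arrays, Mrpl51 (-0.10) and Mrpl3 (-0.18) in EDRE against ESRE. Dim probes, such as those of Mrpl21 and Mrpl41, were limited by background.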

Other observations

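The genes with more than 1 probe gave a check within the set. The 3 probes of Mrps10, a small subunit protein, changed by -0.39, -0.50 and -0.47 between ES and ED, and those of Mrps33 by 0.43 and 0.46. At 4 h after IR the 2 probes of Mrpl1, a large subunit protein with a bacterial counterpart, disagreed between ED and ES cells (0.10, adjusted p = 0.755, for the brighter and -1.36, adjusted p = 0.00305, for the dimmer), while those of Mrpl48 read -0.65 and -0.82.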
